A study of Mus spretus with 19 samples.

Results

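Interferon response genes, a set of 44 genes that cells switch on under interferons, were followed in the livers of wild mice from 5 sites. The members were chosen by symbol: a gene entered when its symbol named a probe of the array, each gene was represented by its brightest probe, and values were read on all 19 arrays. Of the 44 listed symbols, 42 named a probe, and Irf9 and Dhx58 did not. Of these 42, 38 passed the filter on dim probes and were tested, among 16346 genes tested of 27845 gene names with a probe. The other 4, Eif2ak2, Oas1g, Oas3 and Ifi44, were not well above background on any array. Their signals were at most 0.0376, 0.0167, 0.0467 and 0.0420 of an array's 75th percentile. Of the 38 tested members, 36 were well above background on all 19 arrays. Oas2 passed only through PS (4 of 4 arrays there, 1 of 4 at SOL and at DR1, 0 at DR4 and DR6), and Trim12 was well above background everywhere but on the 4 DR4 arrays.

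Interferons are secreted by cells that sense viral or other foreign nucleic acid, and, in the case of interferon gamma, by T and NK cells. Type I interferons act through a receptor, JAK kinases and a transcription factor complex that holds Stat2 and Irf9, which turns on antiviral genes such as the Ifit, Mx and Oas families. Interferon gamma acts in part through Irf1 and turns on guanylate-binding proteins, immunity-related GTPases, antigen processing genes and the chemokines Cxcl9 and Cxcl10. In liver, hepatocytes, Kupffer cells (the resident macrophages), endothelium and lymphocytes can all respond.

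The animals were male Mus spretus, the Algerian mouse, and carried no allele or experimental treatment: the groups differ by the place of capture. The Santa Olalla lagoon (SOL) was the site labelled unpolluted. The sites labelled polluted were the phosphogypsum stacks (PS) and the lower (DR1), medium (DR4) and upper (DR6) course of the Domingo Rubio stream. RNA of 9 livers was pooled for each site and hybridized to 4 arrays, of which 3 were used here for DR6, and ages are not given in the sources used here. All arrays of a site measure 1 pool again, so p-values measure labelling and hybridization spread and not the spread between mice. Each site had its own slide and scan, so site, slide and scan cannot be told apart. In a pooled tissue, fewer cells of a type and less RNA per cell cannot be told apart either.

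The 75th percentile of the processed signal, by which each array was divided, ran from 99.5 to 285.2 intensity units (lowest on SOL replicate 1), and 52.0% to 61.5% of probes were well above background. All 8 measured hepatocyte markers of 11 listed were well above background on every array. Levels below are relative signals, in which 1 is the array's 75th percentile, and differences are log2 fold changes from 1 limma fit to all 19 arrays, given with their standard error (SE) and a p adjusted over all 16346 genes. A gene is called when its adjusted p is under 0.05 and its change at least 2-fold. Levels of different genes are not compared, since they come from different probes.

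Because the probes carry the measurement, the first 30 of the 60 bases are shown for those on which the results turn, 5′ to 3′ as in the array design of the deposited files. The 2 Trim12 probes are shown because that gene had the widest range, the Ifi27 pair because its probes overlap (their longest shared run, or the part of it within these 30 bases, is in capitals), and Oas1a and Oas1f because both belong to one family and were called higher at PS.
Trim12 probe A_52_P267391: catagctaagggctgtcacttacatcaggt
Trim12 probe A_52_P634829: aagatgtgcagaatgttcggtcagagttta
Ifi27 probe A_51_P358233: aggagatgaagttCCAAAAGGCACCTTCAG
Ifi27 probe A_52_P90363: CCAAAAGGCACCTTCAGAACCctcactgat
Mx2: aagagaaagaggctctcaaagctcagcaag
Irf7: gcataaggtgtacgaacttagccgggagct
Oas1a: ctgaagaggctgatgtgtgggtatggtacc
Oas1f: cctgtccacctgttgggaggttctgtccaa
Tgtp: actgcagccaatgatgccatagctcttctg
Ifi47: ctaaacagtgaatggatttcaaattgtgtg
Rsad2: tgtttggagtttggagtctaatggttgcat
Ifit1: cacacattactggaaagatactaagaacca

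By the positions that the files give on mouse build mm8, the Trim12 probes lie at chr7:104173806-104173865 and chr7:104178135-104178194 on the minus strand. The Ifi27, Irf7, Oas1a, Tgtp and Rsad2 probes are placed on the minus strand too, and those of Mx2, Ifi47, Ifit1 and Oas1f on the plus strand. The Ifi27 probes lie at chr12:103856768-103856827 and chr12:103843234-103843293, 13534 bases apart although they share a run of 21 bases and 42 of the 47 bases that overlap when shifted by 13, so they are not independent readings. The Mx2 probe lies at chr16:97715636-97715695, the Oas1a probe at chr5:121158956-121159015, the Oas1f probe at chr5:121118537-121118596, the Tgtp probe at chr11:48830094-48830153, the Ifi47 probe at chr11:48940094-48940153, the Rsad2 probe at chr12:27029262-27029321 and the Ifit1 probe at chr19:34715303-34715362. The Irf7 probe is placed at chr7:141116085-141116435, a stretch longer than the probe. Exon and UTR annotation was not used here. Of 9555 pairs of probes of different genes that hold a member, 0 shared a run of 12 or more bases. The Isg15 probe is placed on chromosome 17 by the files although the mouse Isg15 gene is known to lie elsewhere, so that position is uncertain. The probes were designed on the house mouse, and the sequence that the captured Mus spretus carried under each probe was not measured.

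The 5 pools differed in the level of the set as a whole, with PS at the top and DR6 at the bottom. PS had the highest level of 24 of the 38 members and the lowest of 0, where 18.9% and 17.6% of all genes had their highest and lowest level at PS. Among the 24 is Oas2, which passed the filter only through PS, so its place follows in part from that filter. DR6 had the lowest level of 23 members and the highest of 0, where 20% and 22% of all genes had their lowest and highest level there. SOL was highest in 6 and lowest in 6, DR1 highest in 4 and lowest in 5, and DR4 highest in 4 and lowest in 4. As a deviation from the mean of the 5 sites, the median member stood at 0.35 to 0.41 on the 4 PS arrays, -0.40 to -0.38 on the 3 DR6 arrays, -0.01 to 0.12 at SOL, 0.04 to 0.12 at DR1 and -0.12 to -0.02 at DR4 (log2). The PS and DR6 ranges did not overlap with those of any other site. The median over all genes lay between -0.06 and 0.09 on every array.

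**Figure D1:**
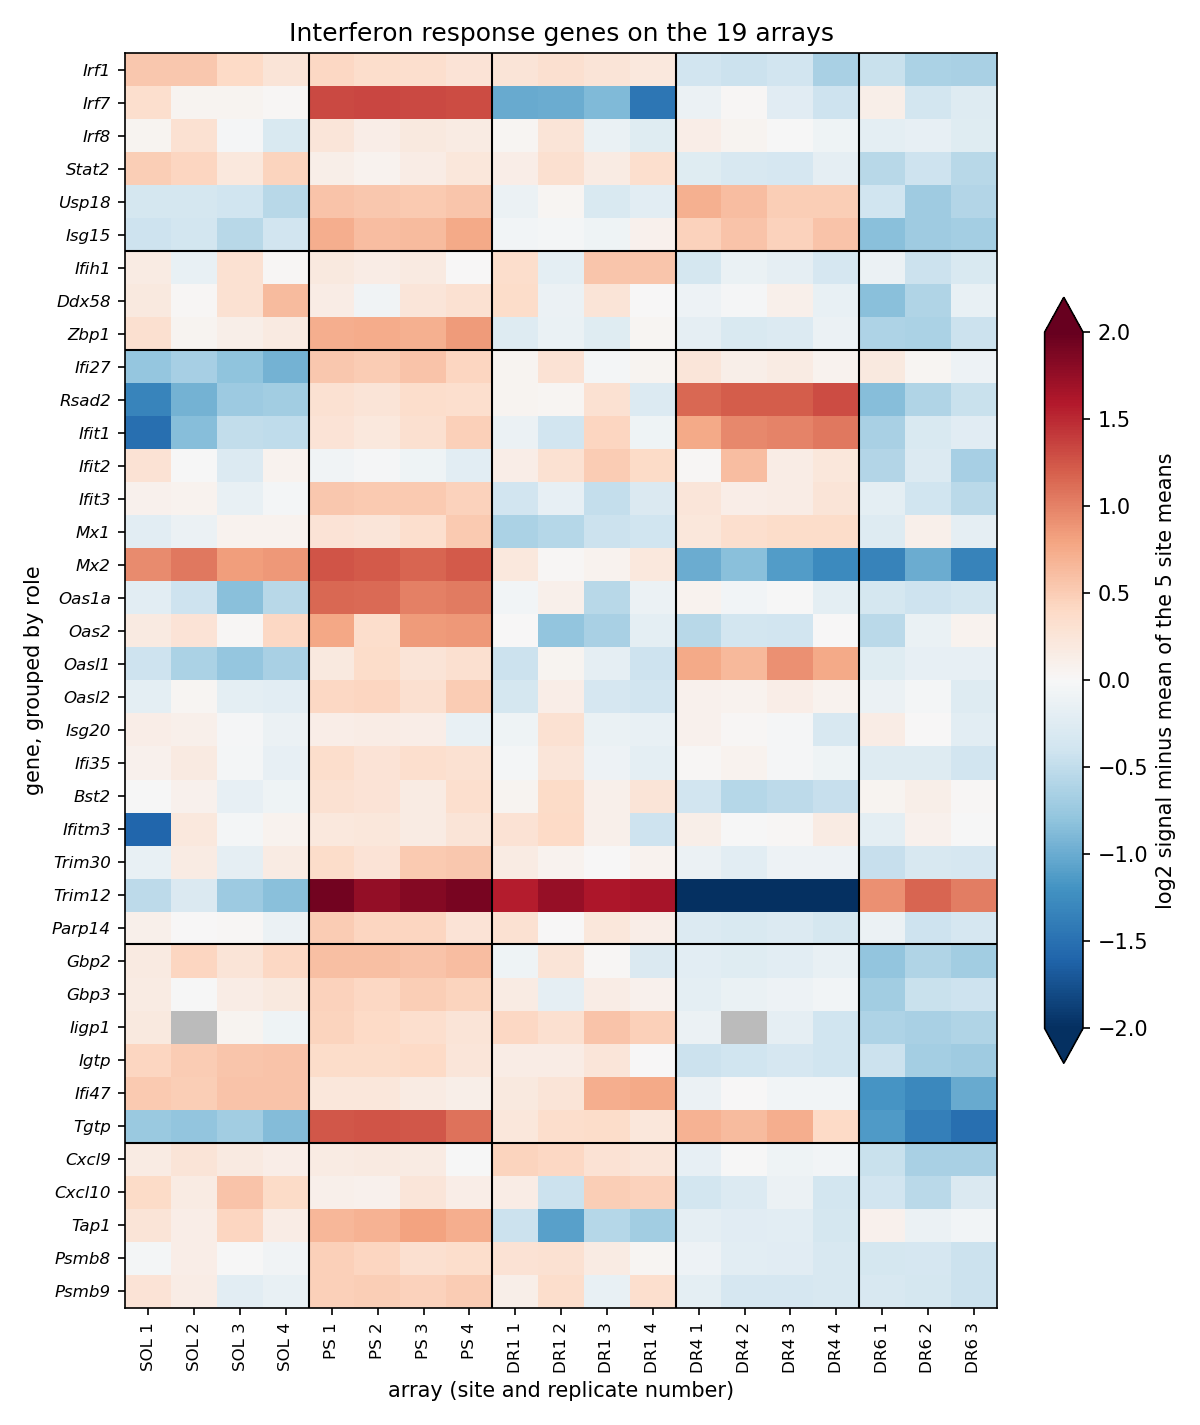
Log2 signal of the 38 tested members (rows, grouped by role) on the 19 arrays (columns, by site and replicate), as the difference from the mean of the 5 site means. Red is higher, blue lower, grey an outlier spot left out, and colours are capped at 2. PS arrays are mostly red and DR6 arrays mostly blue, and Trim12 is off the scale at DR4.

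Against SOL, PS had 8 members called higher and 0 lower, where 2.23% of all genes were called higher and 2.18% lower (4.42% in either direction). The 8 were the effectors Ifi27, Rsad2, Ifit1, Oas1a and Trim12, the ubiquitin-like Isg15, the transcription factor Irf7 and the GTPase Tgtp. By adjusted p alone, 25 members were higher and 2 lower (16.4% and 16.4% of all genes). The median member stood at 0.40 against -0.01 for all genes, and 30 of 38 were positive.

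DR1 had 2 members called higher, Tgtp and Trim12, and 1 lower, Irf7, with 3.53% of all genes called higher and 2.55% lower (6.08% in either direction). Its median member, 0.03, lay by the median of all genes, 0.01, and 19 of 38 members were positive. DR4 had 4 members called higher (Rsad2, Ifit1, Tgtp and Oasl1) and 2 lower (Mx2 and Trim12), where 5.43% and 5.1% of all genes were called (10.5% in either direction). The median member at DR4 was -0.25 against -0.05 for all genes, with 10 members higher and 18 lower by adjusted p alone (23.9% and 31% of all genes).

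DR6 had 1 member called higher, Trim12, and 5 lower, Mx2, Ifi47, Igtp, Gbp2 and Irf1, where 4.67% of all genes were called higher and 2.28% lower (6.95% in either direction). By adjusted p alone, 3 members were higher and 21 lower (20.5% and 23.4% of all genes), and the median member was -0.36 against 0.00 for all genes. The 4 comparisons share the SOL arrays. Of the 38 members, 14 were called in at least 1 of them, in 23 calls, and 17.3% of all genes were called in at least 1.

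**Figure D2:**
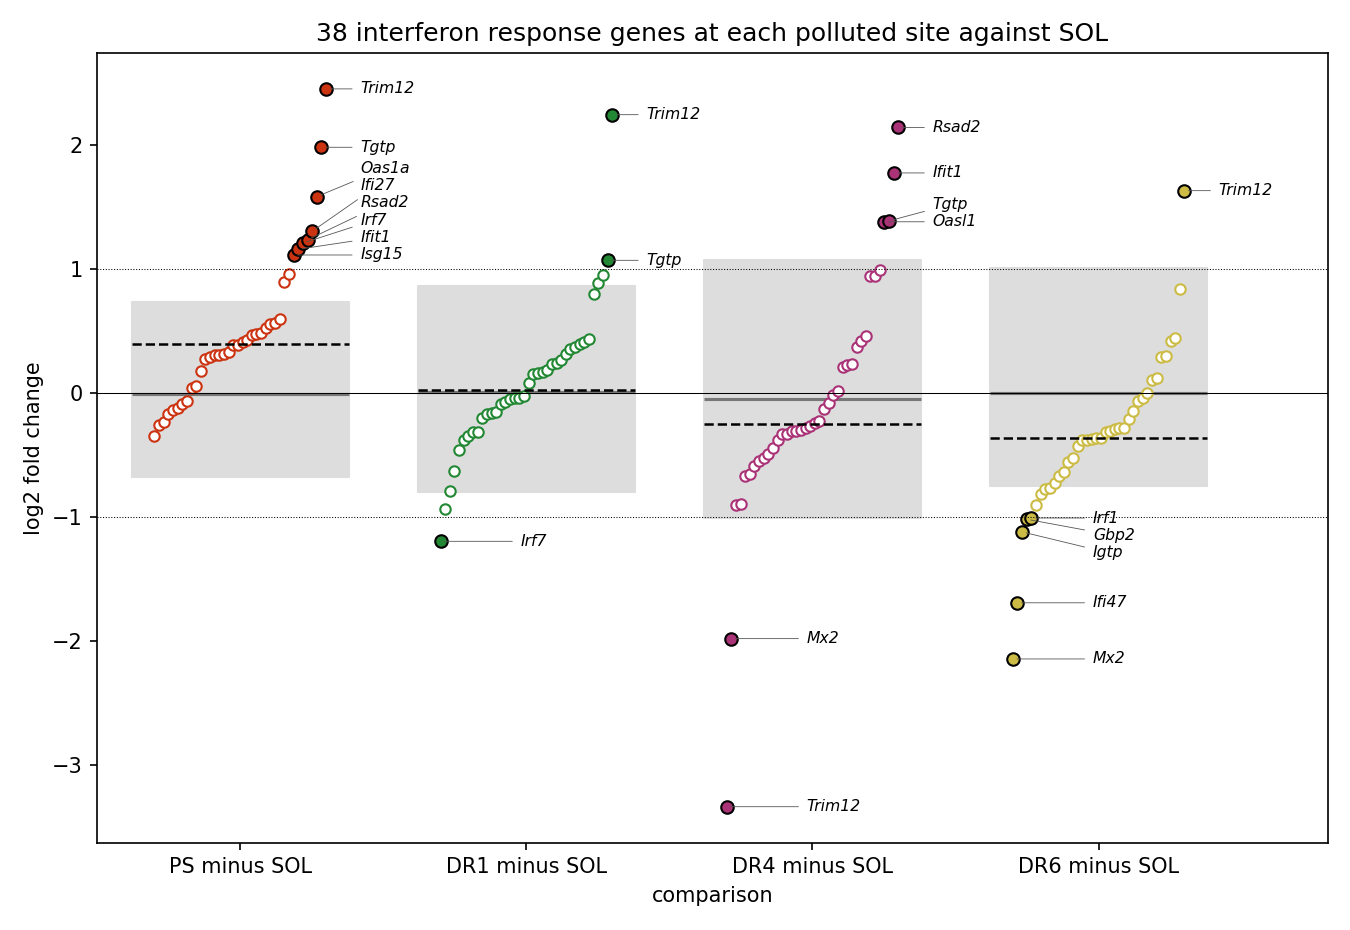
Log2 fold change of each of the 38 members (points, sorted within each comparison) at PS, DR1, DR4 and DR6 minus SOL. Filled and named points were called. The dashed line is the median member, the grey line the median and the grey box the 5th to 95th percentile of all 16346 genes. At PS the dashed line lies above the grey one, 0.40 against -0.01, and at DR6 below it, -0.36 against 0.00. The Trim12 point at DR4 rests on a signal not above background.

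Between polluted sites, PS had 5 members called higher than DR1 and 0 lower (2.64% and 3.72% of all genes, 6.36% in either direction), and 5 called higher than DR4 and 0 lower (4.32% and 4.64%, 8.96% in either direction). Irf7, Mx2, Oas1a and Oas2 were in both, with Tap1 against DR1 and Trim12 against DR4. Oas2 was tested only because it passed the filter at PS, and without it each count is 4. PS had 9 members called higher than DR6 and 0 lower (2.51% and 4.79% of all genes, 7.3% in either direction): Irf7, Usp18, Isg15, Zbp1, Mx2, Oas1a, Gbp2, Ifi47 and Tgtp. All 38 members were higher at PS than at DR6 (50.6% of all genes), with a median of 0.78 and a range of 0.08 to 2.54. This held under median scaling, quantile scaling, and another background correction followed by quantile scaling. When all kept probes of a gene were averaged, 37 were higher, and 37 were without DR6 replicate 3. The arrays of PS and DR6 did not overlap for 37 members, as for 56% of all genes. Oas2, which was tested only through PS, is counted in both the 38 and the 37. With each array divided by its median, 17 members were called in this comparison, with 7.21% of all genes, and the median of all genes moved to 0.18.

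Along the stream, DR1 had 4 members called higher than DR6 and 0 lower (3.26% and 4.24% of all genes, 7.5% in either direction), namely Mx2, Iigp1, Ifi47 and Tgtp. DR4 had 6 called higher than DR6, Usp18, Isg15, Rsad2, Ifit1, Ifi47 and Tgtp, and 1 lower, Trim12 (2.39% and 3.78%, 6.16% in either direction). DR1 against DR4 had 2 called higher, Trim12 and Mx2, and 2 lower, Rsad2 and Oasl1 (3.05% and 2.1%, 5.15% in either direction). In all 10 pairs, 19 of the 38 members, Oas2 among them, were called at least once, as were 24.3% of all genes.

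The number of calls depended on the background correction. With another background correction (normexp with an offset of 50 units, then quantile scaling), all 23 calls against SOL kept their direction and an adjusted p of at most 0.00187, but 15 fell under 2-fold. The 8 still past 2-fold were Tgtp at PS, DR1 and DR4, Ifi27 and Trim12 at PS, Rsad2 at DR4, and Igtp and Ifi47 at DR6. The members called against SOL then numbered 3 at PS, 1 at DR1, 2 at DR4 and 2 at DR6, while the share of all genes called was 1.21%, 1.51%, 3.67% and 1.68%, also lower than before.

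Of the signalling factors, 6 of 7 were measured. Irf7, the transcription factor that amplifies the type I interferon response, read 0.953, 0.784, 0.782 and 0.763 at SOL, 1.89, 1.90, 1.89 and 1.87 at PS, 0.374, 0.380, 0.409 and 0.278 at DR1, 0.696, 0.765, 0.645 and 0.569 at DR4 and 0.818, 0.587 and 0.629 at DR6. PS stood alone at the top and DR1 alone at the bottom, and neither overlapped with any other site. Irf7 was called at PS with 1.21 ± 0.126 (SE, adjusted p = 1.33e-06) and at DR1 with -1.2 ± 0.126 (SE, adjusted p = 9.04e-07). Its difference between PS and DR1 was 2.41 ± 0.126 (SE, adjusted p = 2.33e-10), the 13th when all genes are ordered from the highest at PS downwards. DR4 (-0.30, adjusted p = 0.056) and DR6 (-0.29, adjusted p = 0.103) did not pass the test against SOL.

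Isg15, a ubiquitin-like protein that is joined to other proteins in the response, read 0.328, 0.341, 0.300 and 0.335 at SOL, 0.727, 0.670, 0.679 and 0.742 at PS, 0.421, 0.426, 0.415 and 0.468 at DR1, 0.603, 0.654, 0.602 and 0.652 at DR4 and 0.246, 0.268 and 0.276 at DR6. All PS arrays lay above all DR4 arrays, DR4 above DR1, DR1 above SOL and SOL above DR6. The call was at PS, 1.11 ± 0.0614 (SE, adjusted p = 4.47e-10), while DR4 stood at 0.95 ± 0.0614 (SE, adjusted p = 1.17e-09), short of 2-fold. Usp18, the protease that takes Isg15 off again and dampens signalling at the receptor, read 0.692, 0.689, 0.665 and 0.599 at SOL, 1.31, 1.28, 1.27 and 1.30 at PS, 0.809, 0.909, 0.713 and 0.762 at DR1, 1.44, 1.35, 1.24 and 1.23 at DR4 and 0.669, 0.540 and 0.586 at DR6. PS and DR4 overlapped with each other at the top, above all arrays of the other sites, and Usp18 was called against DR6 at both, with 1.11 ± 0.0887 (SE, adjusted p = 3.68e-08) and 1.14 ± 0.0887 (SE, adjusted p = 2.96e-08).

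Irf1, a transcription factor of the interferon gamma response, read 10.8, 10.8, 9.81 and 8.86 at SOL, 9.86, 9.54, 9.42 and 9.00 at PS, 8.91, 9.28, 8.93 and 8.57 at DR1, 5.72, 5.49, 5.68 and 4.72 at DR4 and 5.47, 4.80 and 4.74 at DR6. The DR4 and DR6 arrays overlapped with each other and all lay below those of SOL, PS and DR1. Irf1 was called at DR6, -1.01 ± 0.0825 (SE, adjusted p = 5.52e-08), and stood at -0.90 ± 0.0764 (SE, adjusted p = 3.45e-08) at DR4. With this probe the DR6 call sat at the 2-fold limit: it was between -0.98 and -0.97 without SOL replicate 1, SOL replicate 2, DR6 replicate 2 or DR6 replicate 3. A dimmer second Irf1 probe was -0.15, -0.55, -1.36 and -1.22 at PS, DR1, DR4 and DR6 against SOL.

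Stat2, a transcription factor of type I signalling, was lowest at DR6 and next lowest at DR4, without overlap with another site, with -0.67 at DR4 and -0.90 at DR6 against SOL (adjusted p = 4.29e-07 and 7.15e-08), short of 2-fold. Irf8, a factor of macrophages and dendritic cells, lay between -0.21 and 0.18 against SOL and passed no test there.

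Of the sensors of foreign nucleic acid, 3 of 5 were measured and 0 were called against SOL. Zbp1, a sensor of Z-form nucleic acid, read 2.17, 1.80, 1.89 and 1.96 at SOL, 2.87, 2.92, 2.86 and 3.15 at PS, 1.46, 1.58, 1.47 and 1.80 at DR1, 1.54, 1.41, 1.45 and 1.61 at DR4 and 1.14, 1.12 and 1.29 at DR6. PS was highest and DR6 lowest without overlap with other sites, and the difference between them was called at 1.32 ± 0.0843 (SE, adjusted p = 2.1e-09). Ddx58 (RIG-I) was -0.82 at DR6 against SOL (adjusted p = 0.000687), and Ifih1 (MDA5) lay between -0.36 and 0.24 with no adjusted p under 0.05. A dimmer second Ifih1 probe was -0.34, -0.27, -0.47 and -0.56 at PS, DR1, DR4 and DR6.

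Of the antiviral effectors, 18 of 21 were measured. Rsad2 (viperin), an enzyme that makes a chain-terminating nucleotide, read 0.284, 0.368, 0.430 and 0.436 at SOL, 0.874, 0.851, 0.906 and 0.892 at PS, 0.735, 0.725, 0.873 and 0.586 at DR1, 1.57, 1.64, 1.65 and 1.75 at DR4 and 0.394, 0.465 and 0.520 at DR6. DR4 was highest, PS and DR1 intermediate and overlapping each other, and SOL and DR6 lowest and overlapping each other. Against SOL it was called at DR4, 2.14 ± 0.131 (SE, adjusted p = 5.46e-10), and at PS, 1.24 ± 0.131 (SE, adjusted p = 1.54e-06). Its 2 other kept probes had the same direction at both sites (1.85 and 2.09 at DR4, 0.73 and 0.90 at PS), and with the mean of the 3 probes the PS change was 0.96, short of 2-fold.

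Ifit1, which binds foreign RNA and blocks its translation, read 0.140, 0.221, 0.283 and 0.279 at SOL, 0.481, 0.459, 0.496 and 0.554 at PS, 0.367, 0.305, 0.535 and 0.373 at DR1, 0.667, 0.769, 0.789 and 0.826 at DR4 and 0.253, 0.320 and 0.339 at DR6. DR4 again lay above every array of the other sites, and SOL replicate 1 was the lowest of all 19. The calls were 1.78 ± 0.197 (SE, adjusted p = 8.76e-07) at DR4 and 1.16 ± 0.197 (SE, adjusted p = 0.000228) at PS, and without SOL replicate 1 the PS change was 0.94, short of 2-fold. Of its neighbours on chromosome 19, Ifit3 was 0.52 ± 0.0792 (SE, adjusted p = 8.13e-05) at PS and 0.21 at DR4, and Ifit2 was -0.12 and 0.23. The Ifit3 and Ifit2 probes lie 60.7 and 73.6 kb from that of Ifit1.

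Oasl1, an OAS-like protein that restrains Irf7 translation, read 0.267, 0.232, 0.210 and 0.229 at SOL, 0.411, 0.460, 0.426 and 0.446 at PS, 0.266, 0.372, 0.316 and 0.268 at DR1, 0.604, 0.559, 0.674 and 0.604 at DR4 and 0.301, 0.318 and 0.320 at DR6. DR4 lay above PS and PS above the other sites, with SOL overlapping DR1 at the bottom. It was called at DR4, 1.38 ± 0.0986 (SE, adjusted p = 3.87e-09), and stood at 0.90 ± 0.0986 (SE, adjusted p = 2.42e-06) at PS. Oasl2, 25.4 kb away by its probe, was highest at PS, 0.56 ± 0.0982 (SE, adjusted p = 0.000291), and 0.23 at DR4 (adjusted p = 0.0583).

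Oas1a makes 2′-5′ linked oligoadenylate, which activates RNase L. It read 0.469, 0.411, 0.306 and 0.370 at SOL, 1.21, 1.2, 1.10 and 1.12 at PS, 0.525, 0.587, 0.373 and 0.504 at DR1, 0.573, 0.524, 0.541 and 0.477 at DR4 and 0.425, 0.411 and 0.421 at DR6. PS lay above all other arrays, DR4 above SOL and DR6, and DR1 overlapped with SOL, DR4 and DR6. The PS change of 1.58 ± 0.128 (SE, adjusted p = 5.67e-08) was called, as were those of PS against DR1, DR4 and DR6, at 1.23, 1.13 and 1.46. Oas1f, a family member outside the set, was 1.66 ± 0.0746 (SE, adjusted p = 3.19e-11) at PS, and the probes of these genes shared no run longer than 6 bases.

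Oas2 lay near background and is given by its arrays: 0.0649, 0.0697, 0.0583 and 0.0762 at SOL, 0.0979, 0.0729, 0.104 and 0.105 at PS, 0.0577, 0.0331, 0.0367 and 0.0503 at DR1, 0.0392, 0.0444, 0.0439 and 0.0576 at DR4 and 0.0393, 0.0524 and 0.0602 at DR6. PS replicate 2 was low at PS and overlapped with SOL, while all PS arrays lay above those of DR1, DR4 and DR6. Since Oas2 passed the filter only through PS, where it is high, its calls for PS against DR1 and DR4 follow in part from that choice and are given as a description: PS was at least 1.96-fold higher than DR4, where no array was above background, and at DR1 1 of 4 was.

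Ifi27, a small membrane protein induced by type I interferon, read 5.04, 5.48, 4.96 and 4.49 at SOL, 12.5, 12.3, 12.8 and 11.6 at PS, 9.01, 10.6, 8.46 and 9.03 at DR1, 10.2, 9.42, 9.67 and 9.10 at DR4 and 9.90, 8.86 and 8.08 at DR6. SOL lay below every array of the 4 polluted sites, PS above every other array, and the 3 stream sites overlapped. It was called at PS, 1.30 ± 0.0795 (SE, adjusted p = 1.64e-09), and stood at 0.89, 0.95 and 0.84 at DR1, DR4 and DR6 (adjusted p = 1.36e-07, 3.02e-08 and 7.55e-07), short of 2-fold. All 3 Ifi27 probes were higher at each of the 4 sites, between 0.69 and 1.34, of which 2 overlap in sequence.

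Mx2, a dynamin-like GTPase against viruses, read 0.840, 0.903, 0.773 and 0.797 at SOL, 1.04, 1.02, 0.972 and 1.02 at PS, 0.505, 0.442, 0.457 and 0.505 at DR1, 0.218, 0.243, 0.201 and 0.181 at DR4 and 0.172, 0.219 and 0.173 at DR6. PS lay above SOL, SOL above DR1, and DR1 above DR4 and DR6, which overlapped each other. The falls of -1.98 ± 0.0927 (SE, adjusted p = 1.81e-11) at DR4 and -2.15 ± 0.1 (SE, adjusted p = 4.82e-11) at DR6 were called. Mx1, whose probe lies 162.7 kb away on chromosome 16, was 0.37 at DR4 (adjusted p = 0.00245) and -0.07 at DR6 (adjusted p = 0.608), and lowest at DR1, -0.46 ± 0.0915 (SE, adjusted p = 0.00054). With the other background correction the Mx2 changes were -0.90 and -0.96.

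Trim12, a mouse relative of the restriction factor Trim5, had the widest range of site means among the members. Its relative signal was 0.173, 0.203, 0.150 and 0.139 at SOL, 0.944, 0.844, 0.888 and 0.926 at PS, 0.741, 0.836, 0.763 and 0.779 at DR1, 0.0143, 0.0256, 0.0136 and 0.0141 at DR4 and 0.468, 0.557 and 0.506 at DR6. PS and DR1 were highest and lay above DR6, DR6 above SOL, and no DR4 array was well above background. Against SOL it was called higher at PS, 2.45 ± 0.163 (SE, adjusted p = 4.64e-09), at DR1, 2.25 ± 0.163 (SE, adjusted p = 1.19e-08), and at DR6, 1.63 ± 0.176 (SE, adjusted p = 1.38e-06). PS and DR1 did not pass the test against each other (0.21, adjusted p = 0.315). At DR4 it was at least 3.83-fold lower than at SOL (adjusted p = 3.07e-11), and at least 21.0-fold, 18.2-fold and 11.9-fold lower than at PS, DR1 and DR6 (adjusted p = 5.22e-14, 1.8e-13 and 9.46e-13).

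The second Trim12 probe, 4329 bases from the first, gave 1.60, 1.25 and 0.77 at PS, DR1 and DR6 against SOL and was lower at DR4, the same directions. Trim30, a related gene whose probe lies 109.1 kb away, stayed between -0.36 and 0.43 against SOL, with 0.43 ± 0.0848 (SE, adjusted p = 0.000888) at PS. With the other background correction, Trim12 was called at PS alone (1.04), with 0.97 and 0.56 at DR1 and DR6.

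**Figure D3:**
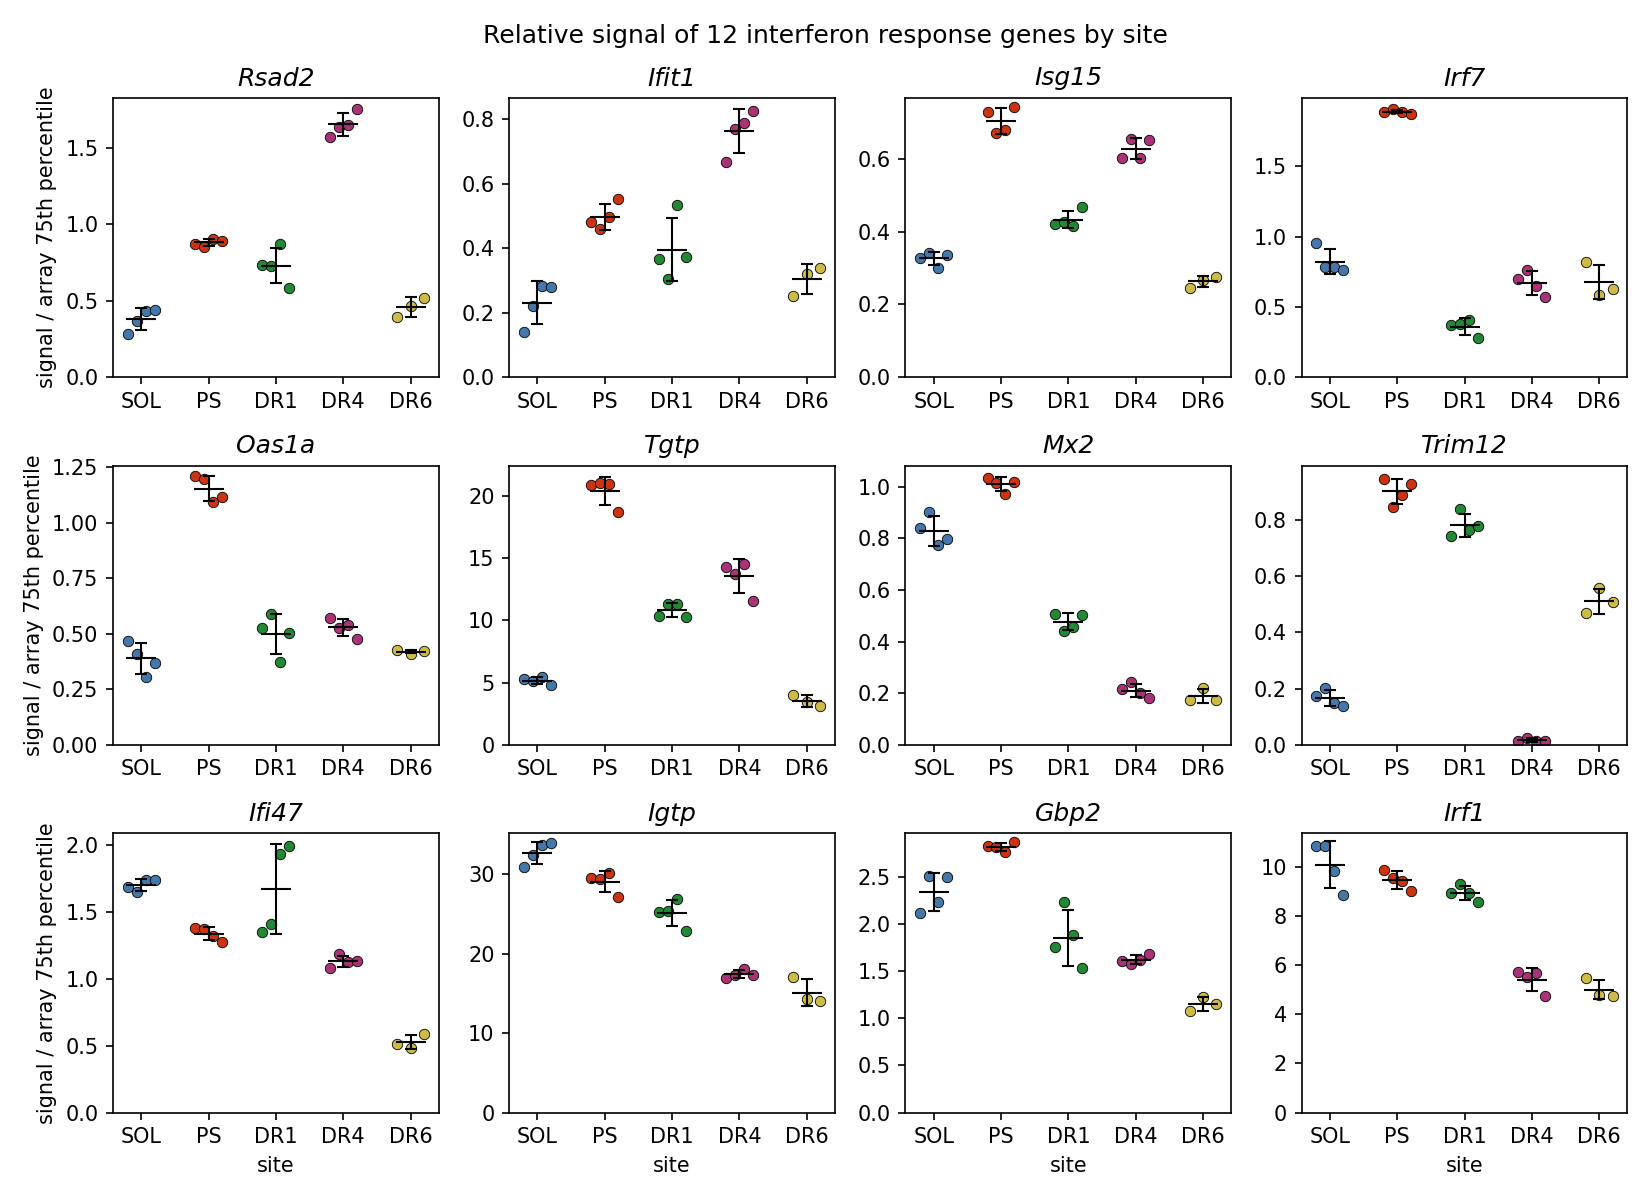
Relative signal (1 is the array's 75th percentile, linear axes from 0) of 12 members called against SOL, by site. Points are arrays, and bars the mean and SD over the 4 arrays of a site (3 for DR6). Rsad2 and Ifit1 peak at DR4, Irf7 and Oas1a at PS, Trim12 is at background at DR4, and Ifi47 and Gbp2 are lowest at DR6, Igtp and Irf1 at DR4 and DR6.

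The remaining effectors were called in no pair. Bst2 (tetherin), which holds budding virus at the cell surface, was 0.32 at PS and -0.44 at DR4 (adjusted p = 0.00405 and 0.000103). Parp14 was 0.41 at PS (adjusted p = 0.000589) and Ifi35 0.30 (adjusted p = 0.0111). The Parp14 rise rests on 1 probe: its other kept probe, which is dimmer, was -0.04 at PS. Isg20, an RNA exonuclease, lay within -0.08 to 0.04 of SOL, and Ifitm3, which blocks entry of virus into the cell, reached 0.56 at PS with adjusted p = 0.147. A dimmer second Isg20 probe was 0.09, -0.38, -0.23 and 0.18 at PS, DR1, DR4 and DR6. Over the 19 members never called, the median against SOL was 0.32 at PS, -0.03 at DR1, -0.23 at DR4 and -0.36 at DR6, and single values ran from -0.90 (Stat2 at DR6) to 0.56 (Oasl2 at PS).

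The interferon-inducible GTPases act in defence against intracellular microbes, some by attacking the membranes around them, and all 6 were measured. All 6 were lower at DR6 than at SOL by adjusted p (23.4% of all genes), with a median of -0.85, and 3 were called (2.28% of all genes called lower). Ifi47 (Irg-47) read 1.69, 1.65, 1.74 and 1.74 at SOL, 1.38, 1.37, 1.32 and 1.28 at PS, 1.35, 1.41, 1.94 and 1.99 at DR1, 1.08, 1.19, 1.13 and 1.13 at DR4 and 0.516, 0.483 and 0.588 at DR6. DR6 lay below every other array, and the 4 DR1 arrays split into a lower and a higher pair. The fall at DR6 was -1.69 ± 0.115 (SE, adjusted p = 5.21e-09), and DR6 was also called against PS, DR1 and DR4, at 1.34, 1.65 and 1.10 (other site minus DR6).

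Igtp (Irgm3) read 30.9, 32.5, 33.6 and 33.9 at SOL, 29.5, 29.4, 30.2 and 27.2 at PS, 25.3, 25.4, 26.9 and 22.9 at DR1, 17.0, 17.4, 18.1 and 17.3 at DR4 and 17.1, 14.3 and 14 at DR6. SOL was highest and the DR4 and DR6 arrays lowest, below all others and overlapping each other. The DR6 change was -1.12 ± 0.0726 (SE, adjusted p = 2.97e-09) and the DR4 change -0.91 ± 0.0672 (SE, adjusted p = 6.21e-09), of which the first was called. Gbp2, a guanylate-binding protein, read 2.11, 2.51, 2.23 and 2.50 at SOL, 2.82, 2.82, 2.76 and 2.87 at PS, 1.75, 2.24, 1.88 and 1.53 at DR1, 1.60, 1.58, 1.62 and 1.68 at DR4 and 1.08, 1.23 and 1.16 at DR6. PS was highest, DR6 lowest, and neither overlapped with another site. Its DR6 change of -1.02 ± 0.0976 (SE, adjusted p = 3.59e-07) was called, but was between -0.99 and -0.97 without SOL replicate 2, SOL replicate 4 or DR6 replicate 1. Gbp3, whose probe lies 64.6 kb away, had the same order of sites, with -0.64 at DR6 and 0.33 at PS (adjusted p = 1.62e-05 and 0.00421).

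Iigp1 (Irga6) read 90.4, 82.0 and 74.8 at SOL, with replicate 2 left out as an outlier spot, 108, 104, 100.4 and 95 at PS and 106, 98.5, 118 and 110.1 at DR1. At DR4, where replicate 2 was also left out, it read 72.8, 70.0 and 60.0, and at DR6 51.6, 50.6 and 52.3. DR6 lay below every other array, and DR1 and PS overlapped at the top. It was called for DR1 against DR6, 1.07 ± 0.085 (SE, adjusted p = 1.34e-07).

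Tgtp, a GTPase of the same family that was named for T cells, read 5.27, 5.11, 5.46 and 4.82 at SOL, 20.9, 21.0, 21.0 and 18.7 at PS, 10.4, 11.3, 11.3 and 10.3 at DR1, 14.3, 13.7, 14.6 and 11.6 at DR4 and 4.01, 3.43 and 3.1 at DR6. The 5 sites did not overlap: PS was highest, then DR4, DR1, SOL and DR6. Against SOL it was called at PS, 1.98 ± 0.0847 (SE, adjusted p = 1.73e-11), at DR4, 1.39 ± 0.0847 (SE, adjusted p = 5.46e-10), and at DR1, 1.07 ± 0.0847 (SE, adjusted p = 3.21e-08), and PS against DR6 was 2.54 ± 0.0914 (SE, adjusted p = 1.14e-12), the 19th of all genes from the top. A dimmer second probe was 1.37, 0.54 and 0.45 at PS, DR1 and DR4 but 0.35 at DR6, where the brighter one was -0.56. With the mean of both probes the DR1 and DR4 changes were 0.81 and 0.92, short of 2-fold. The Tgtp and Ifi47 probes lie 110.0 kb apart on chromosome 11, and at DR4 the first was 1.39 and the second -0.59 against SOL.

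Of the chemokines and antigen processing genes, all 5 were measured and 0 were called against SOL. By adjusted p alone, 3 were higher at PS, all 5 lower at DR4 and 4 lower at DR6 (16.4%, 31% and 23.4% of all genes). Tap1, a subunit of the transporter that loads peptides for MHC class I, read 0.580, 0.532, 0.655 and 0.538 at SOL, 0.766, 0.780, 0.849 and 0.804 at PS, 0.361, 0.228, 0.325 and 0.300 at DR1, 0.427, 0.413, 0.417 and 0.381 at DR4 and 0.512, 0.445 and 0.465 at DR6. PS was highest and DR1 lowest, neither overlapping with another site, and PS against DR1 was called at 1.42 ± 0.109 (SE, adjusted p = 2.52e-08). At DR1 against SOL it was -0.94 ± 0.109 (SE, adjusted p = 2.65e-06), short of 2-fold. The immunoproteasome subunits Psmb8 and Psmb9, with probes 7.0 and 11.6 kb from that of Tap1 on chromosome 17, were 0.19 and 0.15 at DR1.

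At PS, Tap1, Psmb8 and Psmb9 stood at 0.48, 0.38 and 0.47 against SOL (adjusted p = 0.00285, 0.000426 and 0.00336). Cxcl9 and Cxcl10, chemokines that draw T cells, did not pass the test there (-0.06 and -0.23). Both were lower at DR6, -0.77 ± 0.0706 (SE, adjusted p = 2.17e-07) and -0.78 ± 0.166 (SE, adjusted p = 0.00121), and at DR4 they stood at -0.27 and -0.65 (adjusted p = 0.00229 and 0.00171).

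Genes of the pathway outside the set were read from lists. Of 22 interferon ligands and inducing cytokines listed, 8 were measured, Ifnb1 not among them, and 0 were called against SOL at PS, DR1 or DR6, and 1 at DR4. At DR4, Ifnk, a type I interferon of epithelia, was well above background on all 4 arrays and on no other array, at least 2.38-fold higher than at SOL. It passed the filter only through DR4, so this is a description and not a test. All 11 receptors and JAK-STAT members were measured, and 0 were called at any site against SOL, by limma. By adjusted p alone, 2, 3, 4 and 2 were higher at PS, DR1, DR4 and DR6 (16.4%, 24.5%, 23.9% and 20.5% of all genes). Those lower numbered 0, 4, 4 and 3 (16.4%, 23.2%, 31% and 23.4% of all genes). Of 13 measured genes of nucleic acid sensing and induction, 1 was called, the kinase gene Ikbke at DR1, -1.01 ± 0.0728 (SE, adjusted p = 1.09e-08). At DR1, 2.55% of all genes were called lower.

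Among 12 measured brakes of the response, 0 were called at PS, 2 higher at DR1, 3 higher at DR4 and 2 higher at DR6, and 0 lower at any site (all genes called higher: 2.23%, 3.53%, 5.43% and 4.67%). Socs2, a feedback inhibitor best known from growth hormone signalling, was 2.03 ± 0.0792 (SE, adjusted p = 5.27e-12) at DR1, 3.21 ± 0.0792 (SE, adjusted p = 4.89e-15) at DR4 and 1.67 ± 0.0856 (SE, adjusted p = 1.56e-10) at DR6. Irf2, which competes with Irf1 for its sites, was 1.5 ± 0.0833 (SE, adjusted p = 4.52e-10) at DR1 and 1.03 ± 0.0833 (SE, adjusted p = 1.85e-08) at DR4. Cish, a feedback inhibitor of cytokine receptors named here after its values were seen, was 1.2 ± 0.0572 (SE, adjusted p = 2.31e-11) at DR4. Socs3, a target of Stat3, was 1.36 ± 0.074 (SE, adjusted p = 3.35e-10) at DR6.

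Of 100 further interferon-stimulated genes listed, 68 were measured. Those called higher and lower against SOL numbered 2 and 1 at PS (2.23% and 2.18% of all genes) and 2 and 2 at DR1 (3.53% and 2.55%). They numbered 1 and 5 at DR4 (5.43% and 5.1%), and 0 and 4 at DR6 (4.67% and 2.28%). Their median was 0.18, 0.11, -0.08 and -0.18 at the 4 sites. By adjusted p alone, 26 were higher and 7 lower at PS (16.4% and 16.4% of all genes), and 10 higher and 29 lower at DR6 (20.5% and 23.4%). The largest called rise at PS was that of Oas1f, given above, and at DR1 and DR4 that of Phf11, 1.34 ± 0.122 (SE, adjusted p = 1.64e-07) and 1.5 ± 0.122 (SE, adjusted p = 2.04e-08). Tor3a, an interferon-induced ATPase of the torsin family, was the largest called fall at PS, DR1 and DR4, -1.28, -1.31 and -2.03 (adjusted p = 2.06e-10, 1.56e-10 and 1.65e-13), and Gbp6 at DR6, -1.41 ± 0.108 (SE, adjusted p = 2.47e-08).

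Markers of other cells also differed between sites, though not all in the order of the set. Their part in the results was not tested. Against SOL, the median of 4 measured dendritic cell markers was -0.37 at PS and 0.21 at DR6. It was 0.03 and -0.03 for 10 endothelial markers, and -0.28 and 0.35 for 6 bile duct (cholangiocyte) markers. The summed relative signal of 17 Kupffer cell and macrophage markers (of 21 listed, all 17 well above background on every array) was 225.9 to 262.4 at SOL, 222.0 to 225.2 at PS and 211.4 to 237.4 at DR1. It was 131.3 to 145.9 at DR4 and 123.7 to 133.9 at DR6. Irf1, Stat2, Igtp, Ifi47, Gbp2 and Mx2 were also lowest at these sites, while Rsad2, Ifit1, Usp18 and Oasl1 were highest at DR4. Much of the macrophage sum is Marco, with a mean level of 78.8 at SOL, 22.0 at DR4 and 16.8 at DR6. The median marker stood at -0.37 at DR4 and -0.40 at DR6. By adjusted p, 10 and 11 of 17 were lower (31% and 23.4% of all genes) and 1 higher. Cd14 was the higher one, 0.57 and 0.70. Marco, a scavenger receptor of Kupffer cells, was -1.84 ± 0.0789 (SE, adjusted p = 5.51e-12) at DR4 and -2.22 ± 0.0852 (SE, adjusted p = 3.82e-12) at DR6, and Cd163 was -2.09 ± 0.232 (SE, adjusted p = 2.73e-06) at PS.

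At PS, where most members were highest, 6 measured B and plasma cell markers (of 10 listed; Cd79a, Cd22 and Blk not above the filter) summed to 7.92 to 8.71, against 3.03 to 3.71 at SOL, 5.56 to 7.24 at DR1, 3.56 to 4.00 at DR4 and 3.12 to 3.49 at DR6. Most of that sum is Igj, with a mean level of 6.69 at PS, 2.35 at SOL and 1.67 at DR6. The median marker stood at 1.01, 0.70, 0.30 and 0.50 at PS, DR1, DR4 and DR6. At DR6, 5 of 6 were positive, 3 higher and 1 lower by adjusted p (20.5% and 23.4% of all genes). Cd79b, part of the B cell receptor, was 1.80 ± 0.106 (SE, adjusted p = 1.09e-09) at PS, and 1.14 and 1.45 at DR1 and DR6. The 6 general leukocyte markers summed to 12.3 to 12.4 at PS, against 10.1 to 10.6 at SOL and 9.09 to 9.60 at DR6. The 17 measured T and NK cell markers of 23 summed to 5.28 to 5.61 at PS, 4.10 to 4.94 at SOL, 4.12 to 4.85 at DR1, 3.96 to 4.50 at DR4 and 4.58 to 5.19 at DR6. Their median against SOL was 0.48, 0.07, 0.10 and 0.16 at PS, DR1, DR4 and DR6. Called higher were 1, 1, 1 and 2 (2.23%, 3.53%, 5.43% and 4.67% of all genes). At DR6 these were Gzmb, 1.23 ± 0.142 (SE, adjusted p = 2.91e-06), and Klrd1, at least 1.87-fold. The 8 measured neutrophil markers of 14 summed to 11.7 to 13.2 at PS, 11.3 to 14.3 at DR1, 8.14 to 9.13 at SOL and 7.42 to 8.10 at DR6. The neutrophil sum is mostly S100a9, with a mean level of 7.71 at PS and 4.51 at SOL, and 4 of the 8 markers were positive at PS. Of the 8 hepatocyte markers, 7 summed to 1120 to 1293 at PS, 1078 to 1252 at DR1 and 1278 to 1432 at SOL. At DR4 and DR6 they summed to 1338 to 1432 and 1618 to 1692. Between PS and DR6 these markers ran against the set, with 0 of 8 higher at PS (median -0.33). Between PS and DR4 they did not, with 5 of 8 higher at PS (median 0.10).

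Genes of the exocrine pancreas differed widely between pools. The 12 of 16 listed that were measured on every array summed to 863.8 to 935.9 at SOL, 207.3 to 209.4 at PS, 502.0 to 526.5 at DR1, 104.3 to 107.5 at DR4 and 1080 to 1117 at DR6. They were thus lowest at DR4 and PS. Of the members, Rsad2, Ifit1, Isg15, Usp18 and Oasl1 were highest at these sites. Mx2, Zbp1 and Gbp2, in contrast, were highest at PS and lower at DR4 than at SOL. The set as a whole had a median of 0.40 at PS and -0.25 at DR4 against SOL, with 30 and 14 of 38 positive. The part of the pancreas genes in the results was not tested.

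**Figure D4:**
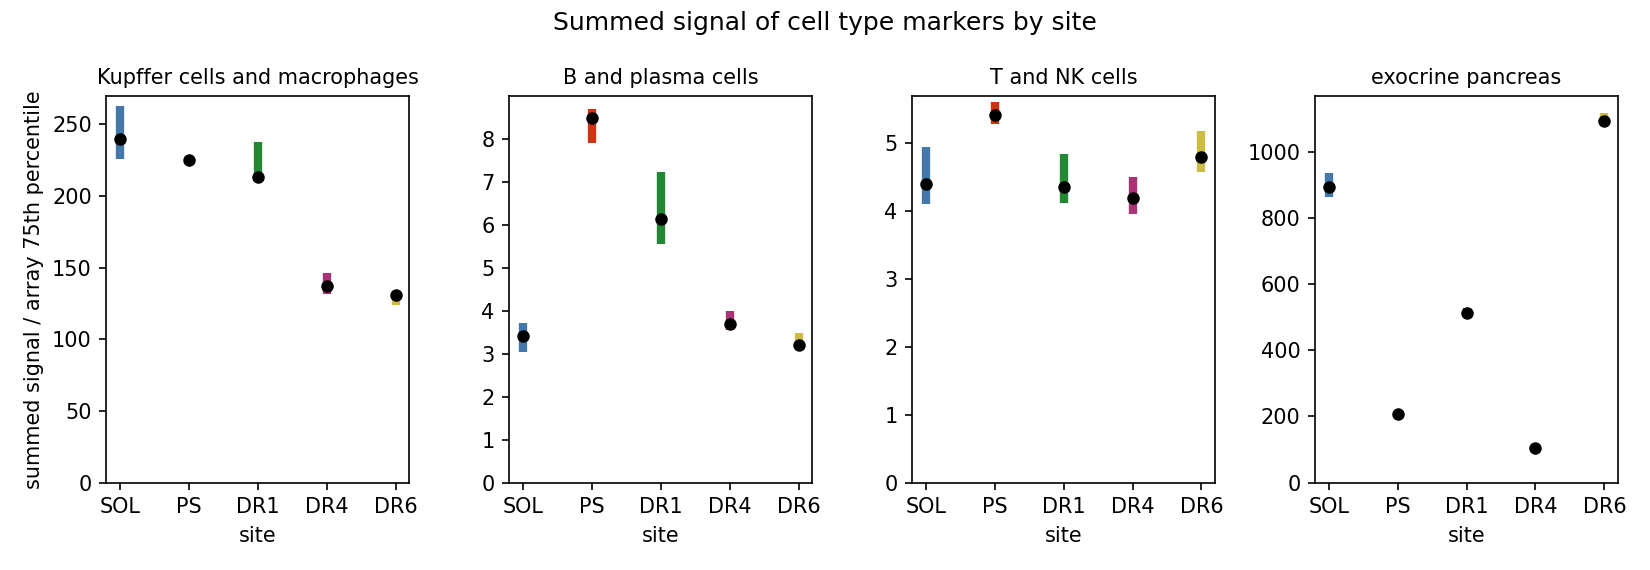
Summed relative signal (linear axes from 0) of markers of Kupffer cells and macrophages (17 genes), B and plasma cells (6), T and NK cells (17) and exocrine pancreas (12), by site. Coloured bars run from the lowest to the highest array of a site, and dots are the median. Macrophage markers are lower at DR4 and DR6, B cell markers higher at PS, and pancreas genes low at PS and DR4.

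With the 5 pools as units, so that each pool was set against the other 4 and assumed to vary like them, limma called 0 members at any site (all genes: 0 or 1 per site, at most 0.00612%). At an unadjusted p under 0.05, 1 member passed at SOL, 4 at PS, 0 at DR1, 5 at DR4 and 4 at DR6, where 4.07%, 3.34%, 4.07%, 6.56% and 5.22% of all genes did. The 4 at PS include Oas2, which passed the filter only through PS. The smallest adjusted p was 0.61, for Trim12 at DR4, where its signal was not above background. Oas1a at PS was 1.35 ± 0.278 (SE, adjusted p = 0.817) and Ifi47 at DR6 was -1.45 ± 0.301 (SE, adjusted p = 0.915). PS was above the mean of the other pools for 37 members, Oas2 among them, and DR6 for 3. The share of all genes was not computed for these counts, so they are a description and not a test.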

How the data were processed

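Liver RNA pooled from 9 male Mus spretus per site was hybridized to 1-colour Agilent mouse arrays: 4 per site and 3 for DR6. The deposited scanner files hold linear spot intensity, background-subtracted by the authors (Feature Extraction 9.5.3.1, Agilent, as the submitters' processing notes name it). A deposited series-wide table repeats this intensity in rounded form (largest difference 0.497%). The flags used (well above background, saturated, outlier, control), of 0 or 1, were other deposited columns, per the file headers. Arrays were not scaled to each other in the deposited files.

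Here, 1639 control spots were left out, outlier spots set missing, the spots of a probe averaged, and signals put on the log2 scale minus each array's 75th percentile. A probe had to be well above background on 3 or more arrays in 1 or more sites, and genes took their brightest kept probe. Gene names and mm8 positions come from 1 SOL file. The older design file of DR1 gives the Gbp3 probe another name.

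Site means were compared with limma 3.58.1 in R 4.3.3, two-sided, in 10 pairs, and with site means as units. In a fold against a site with no array above background, "at least" means the higher site's mean against the higher, per array, of the lowest signal above background and the probe's own. On simulated data for PS against SOL (16002 genes, 200 changed), 98% were recovered. The planted changes all lay well past 2-fold, so recovery near the 2-fold limit was not measured. Arrays of 1 site correlated at 0.98 to 0.997 across genes.

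The members and gene lists were chosen with earlier results of these data known. The text names members called in any pair array by array, and the others by range. For the other lists of the pathway it names the largest called rise and fall per site against SOL. Cell type markers are given by sums or medians, and only some of those called are named. Alternatives were background correction, scaling, filters, probe choice, outlier spots, the deposited table, a replicate block and leaving out each array. Probe sequences and members were read with Python 3.11.15 and pandas 2.3.3, and plots drawn with matplotlib 3.10.9. No genome, promoter or protein sequence was used here.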

Additional observations from a re-analysis of the deposited data

Results flagged for a closer look

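Within sites of 4 arrays, 9 of 150 groups of values (6%, where chance gives about 5%) had 1 array far from the rest. At SOL, Irf7 was 0.953 on replicate 1 against 0.763 to 0.784 on the others, Oasl2 was 0.734 on replicate 2 against 0.619 to 0.627, and Ifitm3 was 3.30 on replicate 1 against 9.64 to 11.5. At PS, replicate 4 was low for Tgtp (18.7 against 20.9 to 21.0), Cxcl9 (3.64 against 4.11 to 4.13) and Isg20 (1.49 against 1.81 to 1.83). At DR1, replicate 2 was high for Oasl2 (0.789 against 0.552 to 0.568) and Isg20 (2.04 against 1.49 to 1.57). At DR4, Trim12 was 0.0256 on replicate 2 against 0.0136 to 0.0143, all not well above background. DR6, with 3 arrays, was not tested in this way. The cause was not tested.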

How the results depend on the processing

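With normexp background correction and quantile scaling, the members called numbered 3 for PS, 1 for DR1, 2 for DR4 and 2 for DR6 against SOL (from 8, 3, 6 and 6), 1 for PS against DR1, 3 for PS against DR4, 2 for DR1 against DR6, 2 for DR4 against DR6 and 1 for DR1 against DR4 (from 5, 5, 4, 7 and 4), and 6 for PS against DR6 (from 9). The share of all genes called fell too, to 1.21%, 1.51%, 3.67% and 1.68% against SOL. It was 1.41%, 2.5% and 1.85% for PS against DR1, DR4 and DR6. For DR1 against DR6, DR4 against DR6 and DR1 against DR4 it was 1.84%, 1.48% and 1.19%. The offset of 50 units is added to every signal, which draws dim genes together. With median scaling, PS against DR6 had 17 calls (from 9; all genes 7.21%), while the median of all genes moved to 0.18 there and to 0.12 for PS against DR4. No member call against SOL changed direction under any alternative. The mean of all kept probes took 3 of 23 calls under 2-fold, and leaving out 1 array took 8 of 437 under it, all of Irf1 or Gbp2 at DR6 or Ifit1 at PS. Leaving out 1 array gave 7 to 8 calls for PS, 3 to 4 for DR1, 4 to 6 for DR6 and 6 to 7 for DR4 against SOL. The share of all genes called then ran from 4.29% to 4.64%, 5.9% to 6.62%, 6.37% to 7.24% and 10.2% to 10.9%. For the other pairs, leaving out 1 array gave 4 to 5 (PS against DR1), 4 to 6 (PS against DR4), 9 to 12 (PS against DR6), 4 to 5 (DR1 against DR6), 7 to 8 (DR4 against DR6) and 3 to 5 (DR1 against DR4), and 0 for each pool against the others. In the same order of pairs, the share of all genes called ran from 6.23% to 7.04%, 8.82% to 9.22%, 6.8% to 7.47%, 7.1% to 7.84%, 5.98% to 6.3% and 4.98% to 5.58%. With the replicate number as a block, PS against DR6 had 10 calls (from 9; all genes 7.53%) and the other 9 pairs kept their counts, 8 for PS against SOL (all genes 4.44%). The deviations of same-numbered arrays correlated at -0.162 to 0.483 across genes in 36 pairs (median 0.0881), which does not show that the numbers pair the arrays, and no call against SOL changed under this block. Quantile scaling, other filters, outlier spots kept and the deposited table took 0 of the 23 calls away.

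With 1 pool per site, the spread between mice was not measured. Oas2 outside PS, and Trim12 at DR4, lie at or near background, where differences have no exact value.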
